A study of Homo sapiens with 90 samples.

Results

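The subunits of the 5 complexes of oxidative phosphorylation were described in HepaRG cells, a human liver cell line whose differentiated cultures hold hepatocyte-like and biliary-like cells. Members were the genes with a probe set annotated to a single symbol that begins with NDUFA, NDUFB, NDUFC, NDUFS or NDUFV and a digit, with UQCR, with COX and a digit from 4 to 8, or with ATP5, together with NDUFAB1 and the SDH genes. This gave 83 of 19774 genes, each represented by its brightest probe set. They comprised 34 subunits of complex I, 3 of complex II (SDHA, SDHC and SDHD), 7 of complex III, 17 of complex IV and 17 of complex V. The other 5 members were ATP5IF1, which encodes the inhibitor of ATP synthase, the noncoding RNAs NDUFA6-DT, NDUFB2-AS1 and NDUFV2-AS1, and the pseudogene ATP5MC2P1. Of the 78 subunits, 72 had a mean log2 level above 4 over all arrays, as did 73 of all 83 members, and the 6 dim subunits were isoforms of complex IV. SDHB was not analysed here.

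The study exposed the cells for 24 h to 1 of 3 agrichemicals in DMSO or to DMSO alone, with 3 replicates per group. Fenbuconazole and imazalil are azole fungicides, the first a triazole and the second an imidazole, and 2,4-D is a herbicide of the chlorophenoxy class. Each was given at 9 concentrations from 0.001 to 10 µM, in steps of about 3-fold. The 3 DMSO arrays served all 3 chemicals, so that comparisons with DMSO share their controls. The replicates carry the codes P1, P2 and P3, and the study's supplement states that replicates were independent experiments on independent batches of cells. By the labels 2 arrays of P2, those of 0.001 and 0.003 µM 2,4-D, carry the same sample number. Their values correlated at r = 0.99605, near the top of the range over pairs of low-concentration arrays in that set (0.99101 to 0.99608). That range includes this pair, so it cannot tell whether the labels are right. Without both arrays no member passed a test with 2,4-D, as with them. The model is a single line in monoculture, seeded from thawed cells in plates. On the arrays 9 of 9 measured hepatocyte markers were above a log2 level of 4. Of the other lists, 3 of 6 biliary markers, 5 of 7 stellate or fibroblast markers, 1 of 7 endothelial, 1 of 7 immune and 0 of 4 muscle or heart markers were above that level. The biliary markers KRT7, EPCAM and CFTR were not.

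Oxidative phosphorylation takes place in the inner mitochondrial membrane. Complex I oxidises NADH and complex II oxidises succinate, both pass electrons through ubiquinone to complex III, and cytochrome c carries them to complex IV, which reduces oxygen. Complexes I, III and IV pump protons, and complex V, the ATP synthase, uses the gradient to make ATP. All members are nuclear genes, and no subunit encoded by mitochondrial DNA was among the genes with a probe set of a single symbol. Probe sets with several symbols or none were not used here. In hepatocytes this ATP pays for gluconeogenesis and urea synthesis. The factors NRF1, GABP of the ETS family and YY1 are known to bind near the starts of many nuclear genes of the chain.

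The promoters of the 3 subunits that passed a test with imazalil are shown because the results below turn on them. Each is 300 bases long, from 250 bases before to 50 after the annotated start, from RefSeq on GRCh38.p14, 5′ to 3′ on the plus strand. Capitals mark matches to the motifs searched on both strands, which were NRF1 (GCGCATGCG), ETS (CCGGAAG), YY1 (AANATGGC), a cyclic AMP response element or CRE (TGACGTCA), an oestrogen-related receptor site or ERR (TCAAGGTCA) and the TATA box (TATAAA). ATP5MC1 encodes the c subunit that forms the rotor ring of ATP synthase, and its window at chr17:48892537-48892836 holds the CRE letters.
ATP5MC1: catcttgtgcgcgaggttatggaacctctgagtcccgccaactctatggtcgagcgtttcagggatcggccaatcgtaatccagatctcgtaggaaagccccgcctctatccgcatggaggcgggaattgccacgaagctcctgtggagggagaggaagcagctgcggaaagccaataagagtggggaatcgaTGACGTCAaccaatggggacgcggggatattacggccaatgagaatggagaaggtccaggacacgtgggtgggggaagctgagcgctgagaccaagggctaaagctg
NDUFS7 encodes an iron-sulfur subunit of complex I that lies next to the ubiquinone site, and its window at chr19:1383657-1383956 holds the NRF1 letters, read on the other strand, and the YY1 letters.
NDUFS7: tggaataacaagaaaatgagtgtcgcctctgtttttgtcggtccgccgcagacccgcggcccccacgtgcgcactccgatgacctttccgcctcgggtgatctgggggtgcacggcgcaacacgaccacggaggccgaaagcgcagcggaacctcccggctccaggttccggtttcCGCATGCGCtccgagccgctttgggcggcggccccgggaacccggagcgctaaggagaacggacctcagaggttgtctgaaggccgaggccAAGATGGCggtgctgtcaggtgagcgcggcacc
NDUFS3 encodes a core subunit of the arm of complex I that reaches into the matrix, and its window at chr11:47578824-47579123 holds the ETS letters on either strand and the YY1 letters.
NDUFS3: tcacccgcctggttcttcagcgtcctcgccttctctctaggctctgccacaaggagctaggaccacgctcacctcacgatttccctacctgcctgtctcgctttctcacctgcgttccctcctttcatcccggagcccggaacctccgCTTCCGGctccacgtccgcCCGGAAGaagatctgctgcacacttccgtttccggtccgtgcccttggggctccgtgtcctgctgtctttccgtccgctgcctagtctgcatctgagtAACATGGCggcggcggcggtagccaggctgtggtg
The YY1 letters are in the windows of NDUFS7 and NDUFS3, and no motif is in all 3.

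A promoter was available for 66 of the 78 subunits and for 70 of the 83 members. The YY1 letters were in 24 of the 66 (36.4%), against 9.9% of 15399 genes with a promoter and 6.58% of all 35116 promoters. The NRF1 letters were in 11 (16.7%), against 3.18% of genes and 1.92% of promoters. The ETS letters were in 19 (28.8%), against 16.69% of genes and 10.26% of promoters. At least 1 of these 3 motifs was in 41 of the 66 promoters (62.1%), against 26.46% of genes. The CRE letters were in 4 (6.1%; 3.08% of genes and 1.85% of promoters), the TATA letters in 7 (10.6%; 11.57% and 11.53%) and the ERR letters in 1, that of SDHD (1.5%; 0.34% and 0.35%). By complex, YY1 letters were in 13 of 31 promoters of complex I, 0 of 2 of complex II, 2 of 6 of complex III, 5 of 14 of complex IV and 4 of 13 of complex V. A match is a run of letters and not a measured binding site.

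The clearest pattern among the subunits was a small, shared upward shift at 10 µM imazalil. Of the 72 subunits above the level of 4, 70 had a higher mean at 10 µM than in DMSO, with a median log2 difference of 0.13, or 1.1-fold. The differences ran from -0.04 for NDUFV2, a flavoprotein-arm subunit of complex I, to 0.32 for ATP5MC1. Over all genes tested, 53.8% were higher and the median difference was 0.01, and over the 2539 genes with a mean level above 8 these values were 54.6% and 0.02. No member passed limma's test against DMSO at an adjusted p of 0.05, where 0.789% of all genes did (156 of 19774). Of the 78 subunits, 16 had an unadjusted p below 0.05, all 16 higher, as did 1981 of all genes in either direction. In these bulk samples a change in the share of cells of a type and a change in RNA per cell cannot be told apart.

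The differences were described by complex, and a difference between complexes was not tested. The median log2 difference from DMSO at 10 µM imazalil was 0.14 in complex I (33 of 34 higher), 0.11 in complex II (3 of 3), 0.15 in complex III (7 of 7), 0.13 in complex IV (11 of 11 above the level of 4) and 0.13 in complex V (16 of 17). Against the 12 arrays of the 4 lowest imazalil concentrations (0.001 to 0.03 µM), which do not use DMSO, the medians were 0.13, 0.11, 0.13, 0.10 and 0.09 in the same order. By that reference 66 of the 72 subunits were higher, with a median of 0.12, against 53% of all genes and a median of 0.01. The array means of complex II, with 3 genes, spread most at 10 µM, from -0.061 to 0.157 relative to DMSO (mean 0.079 ± 0.12 SD, n = 3). The arrays ran from 0.104 to 0.169 in complex I, 0.130 to 0.147 in III, 0.110 to 0.135 in IV and 0.117 to 0.137 in V. The group means of these other complexes lay between 0.119 and 0.139. The 6 dim isoforms of complex IV had 3 of 6 higher than DMSO and a median of -0.08, at levels near the array medians, where a shift of this size could not be read.

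**Figure D1:**
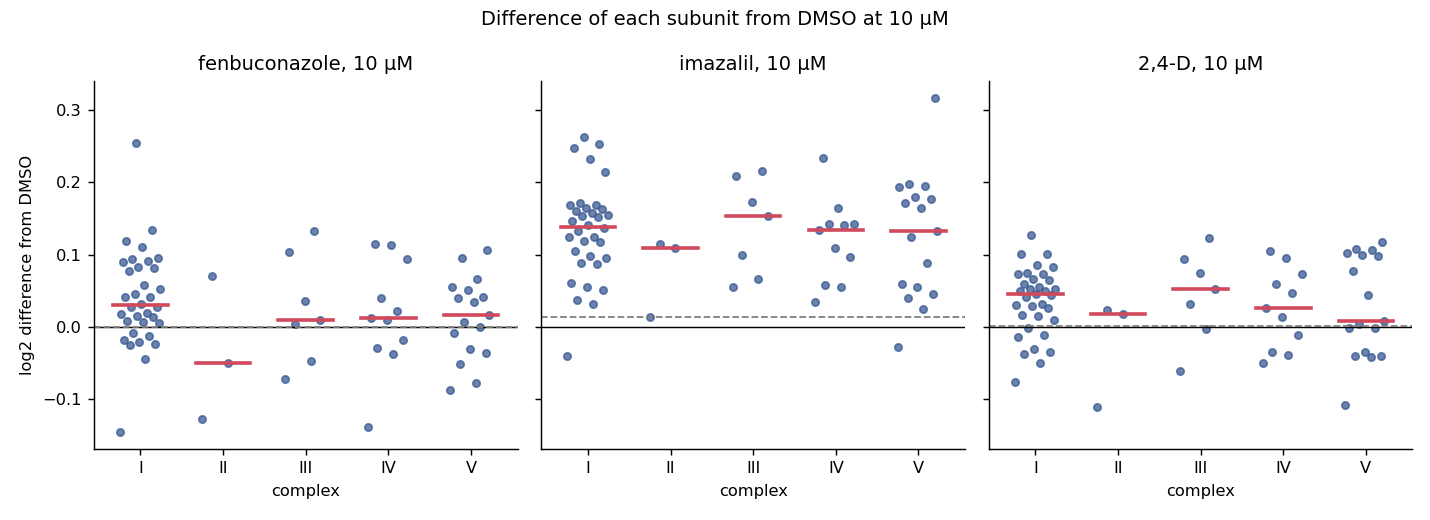
Log2 difference from DMSO at 10 µM of each subunit above a log2 level of 4 (1 point per gene, treated mean minus control mean, n = 3 each), by complex and chemical, with red bars at the median of a complex and a dashed line at the median of all genes. With imazalil 70 of the 72 points lie above 0, with 49 for fenbuconazole and 50 for 2,4-D.

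The mean of the 72 subunits on each array, taken relative to the DMSO mean of its set, showed the same shift array by array. At 10 µM imazalil the 3 arrays stood at 0.115 (P1), 0.145 (P2) and 0.123 (P3) on the log2 scale. All 3 were above each of the other 87 columns, of which the highest was 0.090, at 1 µM imazalil in P2. The DMSO arrays in the imazalil set stood at 0.017, -0.060 and 0.044, so the P2 control was the lowest of the 3. At 3 µM imazalil the arrays stood at -0.001, 0.064 and -0.041, within the range of DMSO apart from the P2 array, and at 1 µM the mean was 0.08 ± 0.012 (SD, n = 3). The order of the concentrations was therefore not a steady rise. Across all chemicals 60 of the 81 treated columns lay above 0, and the lowest was -0.054, at 0.03 µM 2,4-D in P3.

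**Figure D2:**
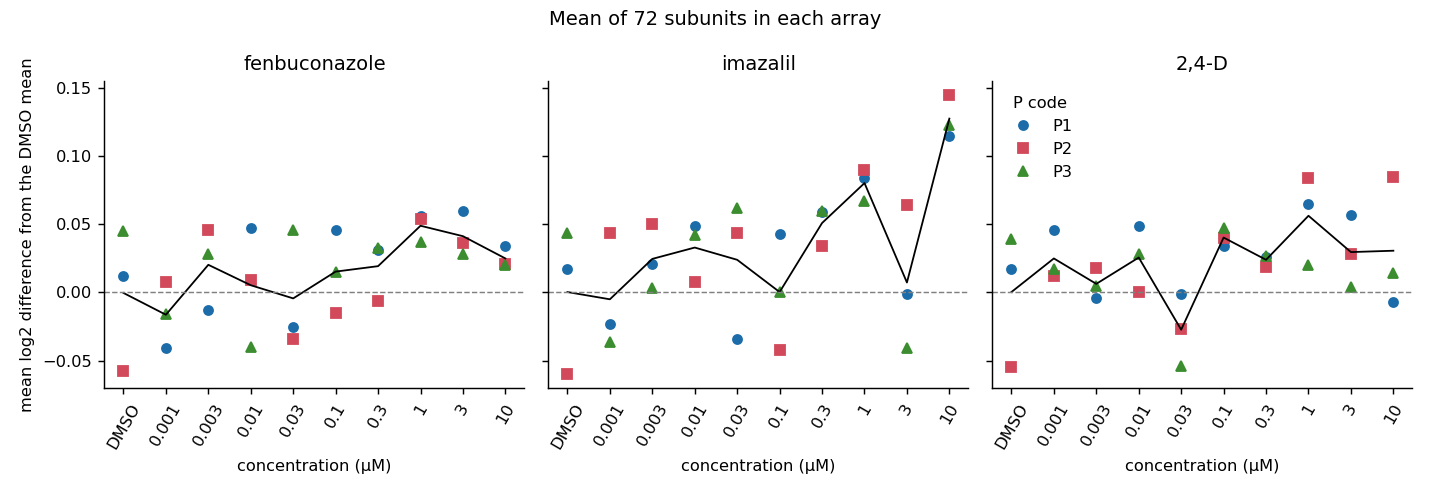
Mean log2 level of the 72 subunits on each array relative to its own set's DMSO mean (vertical axis), by concentration in µM with equal spacing and DMSO at the left, in 1 panel per chemical. Symbols are arrays by replicate code and the line joins group means. The 3 arrays at 10 µM imazalil, from 0.115 to 0.145, lie above all other columns.

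Within each replicate code the direction was the same. At 10 µM imazalil 58 of the 72 subunits were above the DMSO array of P1 (median 0.09), 68 above that of P2 (0.20) and 62 above that of P3 (0.08), where 50.6%, 54.7% and 52.2% of all genes were above. Against the low concentrations of the same code the medians were 0.10, 0.13 and 0.10, with 62, 60 and 65 subunits above. P2 carried the largest share of the difference from DMSO, and without P2 the median fell from 0.13 to 0.08. The 3 arrays at 10 µM lay above all 3 DMSO arrays for 34 of the 72 subunits and below them for 0, where 8.09% of all genes lay above. They lay above all 12 low-concentration arrays for 15 subunits and below them for 0, where 1.94% of all genes lay above. Other mean levels on the same 3 arrays, also relative to DMSO, were 0.024, -0.012 and 0.028 for genes above a level of 8, 0.019, 0.010 and 0.058 for cytosolic ribosomal proteins, and 0.036, 0.189 and 0.123 for mitochondrial ribosomal proteins.

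Single subunits passed a test only with imazalil among the 3 chemicals, and only in the comparisons that did not use DMSO. Against the low concentrations 3 members rose, ATP5MC1, NDUFS7 and NDUFS3, where 2.28% of all genes passed (450 genes) and 1.12% passed as higher. In the linear trend over the 9 concentrations 1 member passed, ATP5MC1, with a rising slope, where 0.92% of all genes passed (182 genes) and 0.42% passed as rising. Against the low concentrations 27 of the 78 subunits had an unadjusted p below 0.05, as did 2514 of all 19774 genes.

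ATP5MC1 was the subunit with the largest difference. Its log2 level in DMSO was 8.18 (P1), 8.31 (P2) and 8.18 (P3), and in the 12 low-concentration arrays it ran from 7.96 to 8.26 with a median of 8.16. At 10 µM imazalil it was 8.53, 8.66 and 8.41, above all 3 DMSO and all 12 low arrays. It was 8.32, 8.25 and 8.29 at 1 µM and 8.38, 8.28 and 8.17 at 3 µM, values that overlapped those of DMSO. The difference from the low concentrations was 0.38 (SE 0.072, 95% interval 0.23 to 0.53, 1.3-fold, limma adjusted p = 0.0022), and the slope was 0.079 per 10-fold concentration (SE 0.018, limma adjusted p = 0.024). Against DMSO it was 0.32 (SE 0.091, limma adjusted p = 0.12). Without P1 the difference from the low concentrations was 0.40 with a limma adjusted p of 0.075, and without P2 it was 0.33 with 0.24. The slope was 0.047 without the 10 µM arrays (limma adjusted p = 0.47), and leaving out any 1 replicate gave adjusted p from 0.14 to 0.19.

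NDUFS7 gave 8.13, 8.04 and 8.06 in DMSO and 8.33, 8.40 and 8.25 at 10 µM imazalil (P1, P2, P3). The 12 low arrays ran from 7.79 to 8.22 with a median of 7.98, so that the 10 µM arrays lay above every array of both references. The difference from the low concentrations was 0.35 (SE 0.071, 1.27-fold, limma adjusted p = 0.0048), and from DMSO 0.25 (SE 0.090, adjusted p = 0.27). NDUFS3 gave 9.18, 9.19 and 9.17 in DMSO and 9.35, 9.59 and 9.34 at 10 µM, with the low arrays from 9.09 to 9.39, which overlap. Its difference from the low concentrations was 0.25 (SE 0.069, 1.19-fold, limma adjusted p = 0.046), and from DMSO 0.25 (SE 0.087, adjusted p = 0.26). Leaving out P1, P2 or P3 gave limma adjusted p of 0.056, 0.31 and 0.12 for NDUFS7 and 0.13, 0.76 and 0.27 for NDUFS3. NDUFS3 also missed the threshold with adjustment over all probe sets (0.074) and after quantile normalisation (0.074).

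**Figure D3:**
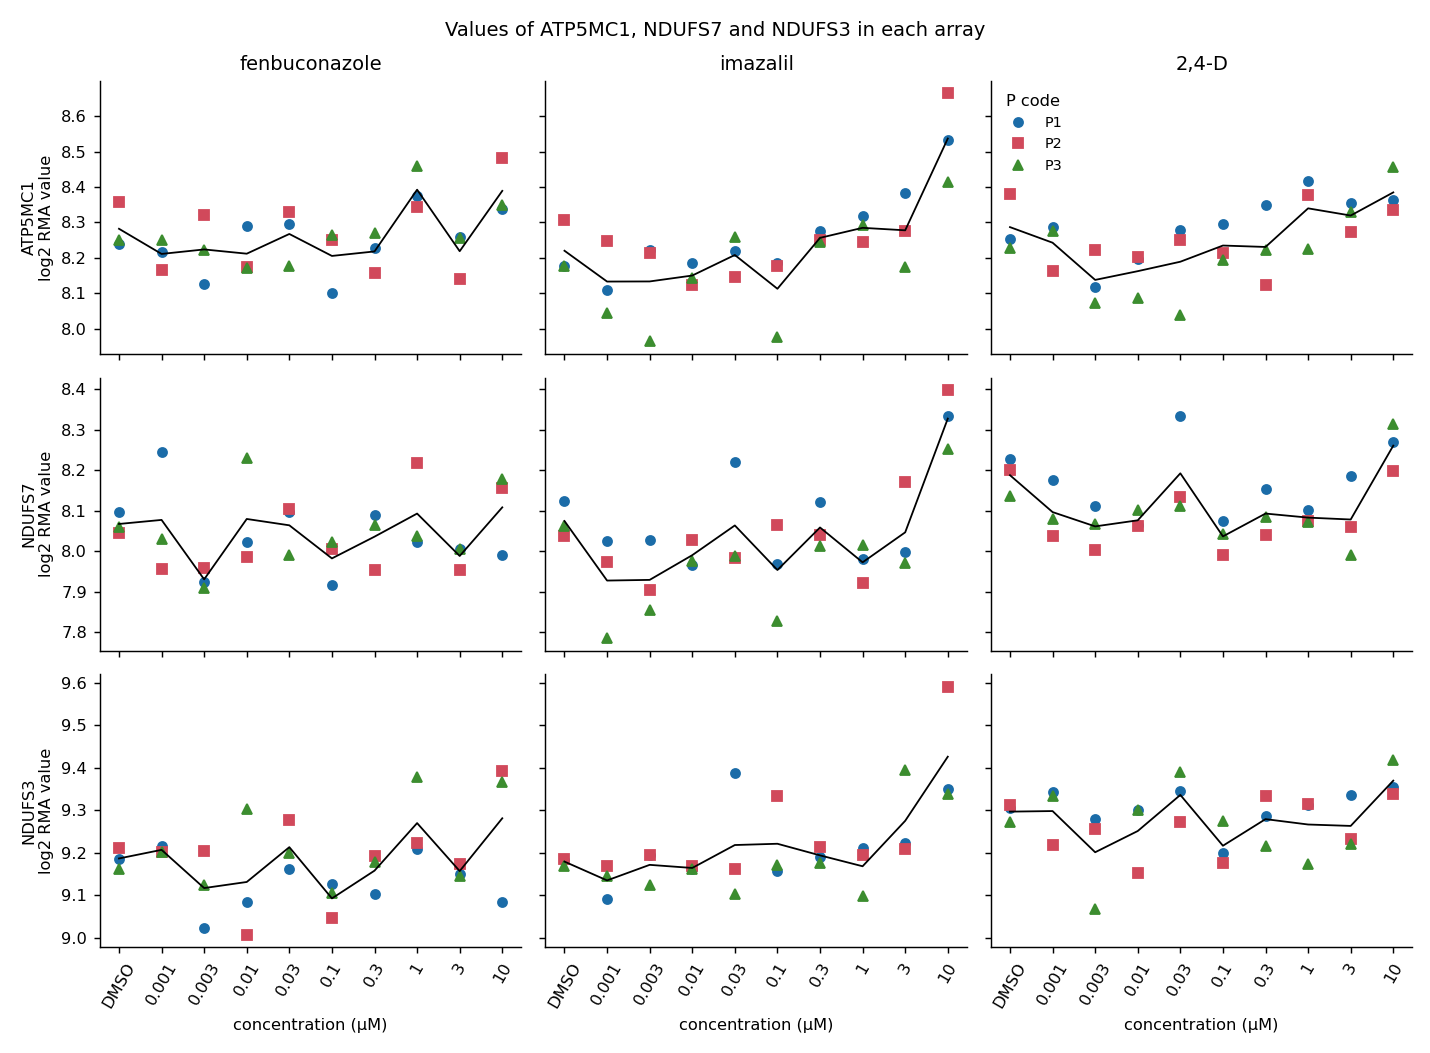
Log2 level of ATP5MC1, NDUFS7 and NDUFS3 on every array, by concentration in µM with equal spacing and DMSO at the left, for the 3 chemicals, with symbols for the replicate codes and a line through the group means. The arrays at 10 µM imazalil lie above all other imazalil arrays for ATP5MC1 (8.41 to 8.66) and NDUFS7, and overlap them for NDUFS3.

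The other subunits with the largest differences in their complex at 10 µM imazalil did not pass the test. NDUFB1, an accessory subunit of complex I, went from 10.15, 10.02 and 10.28 in DMSO to 10.50, 10.29 and 10.44 (0.26, SE 0.096, adjusted p = 0.29). In complex III, UQCRH, the hinge protein at the cytochrome c side, went from 10.72, 10.40 and 10.72 to 10.81, 10.81 and 10.88 (0.22, SE 0.10, adjusted p = 0.47). Both had their lowest DMSO value in P2, and at 10 µM imazalil neither overlapped DMSO. UQCRB, which helps to form the ubiquinone pocket, differed by 0.21 (SE 0.082, adjusted p = 0.34). In complex IV, COX5A, a matrix-side subunit, differed by 0.23 (adjusted p = 0.55). In complex V, ATP5F1B, the catalytic beta subunit, went from 10.86, 10.83 and 10.85 to 10.97, 11.11 and 11.04 (0.20, SE 0.088, adjusted p = 0.43).

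The c ring of ATP synthase has 3 genes that encode the same mature protein, and they differed in size of change. At 10 µM imazalil the difference from DMSO was 0.32 for ATP5MC1, 0.02 for ATP5MC2 and 0.19 for ATP5MC3 (adjusted p = 0.49), of which none passed the test against DMSO. The differences between the 3 genes were not tested.

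Complex II, the only complex without subunits encoded by mitochondrial DNA, gave no call with any chemical. SDHA, the flavoprotein that oxidises succinate, went from 9.71, 9.76 and 9.70 in DMSO to 9.76, 9.93 and 9.81 at 10 µM imazalil (0.11, SE 0.089, adjusted p = 0.76). SDHC and SDHD anchor the complex in the membrane. SDHC went from 10.22, 10.28 and 10.00 to 10.14, 10.26 and 10.14, a difference of 0.01. SDHD went from 8.12, 7.74 and 8.43 to 8.56, 7.61 and 8.46 (0.11, SE 0.24), a spread between replicates wider than the difference. Against the low concentrations of imazalil the differences were 0.11 for SDHA, 0.15 for SDHC and -0.15 for SDHD.

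Fenbuconazole left the subunits close to DMSO. At 10 µM, 49 of the 72 were higher, with a median log2 difference of 0.02, where the median over all genes was -0.0002. The medians by complex were 0.03, -0.05, 0.01, 0.01 and 0.02 for I to V. No member passed limma's test against DMSO (0.612% of all genes passed) or against the low concentrations (1.78%). The counts of subunits with an unadjusted p below 0.05 were 1 and 4, where 1524 and 1947 of all genes were below it. The 95% interval of the difference from DMSO lay within 0.5 of 0 for all 72 subunits and within 0.25 for 43. The arrays at 10 µM had subunit means of 0.034, 0.021 and 0.020, inside the DMSO range of -0.058 to 0.045 in that set. NDUFA6, a subunit of the matrix arm of complex I, had the largest difference, from 9.94, 9.62 and 9.92 in DMSO to 10.14, 10.02 and 10.08 (0.25, SE 0.088, adjusted p = 0.33), while its second probe set gave 0.09. NDUFV2 differed by -0.15 (adjusted p = 0.76), SDHC by -0.13, UQCRH by 0.13, UQCRB by 0.10, ATP5MC1 by 0.11 and ATP5MK by 0.10, with none past the test. The other probe sets of SDHC gave values from -0.0445 to 0.0545.

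The herbicide 2,4-D gave a similar picture. At 10 µM, 50 of the 72 subunits were higher than DMSO with a median of 0.04, where the median over all genes was 0.001. The medians were 0.05, 0.02, 0.05, 0.03 and 0.01 for complexes I to V. Of all genes 0% passed limma's test against DMSO, with 1 subunit and 1115 genes at an unadjusted p below 0.05. Against the low concentrations 0.384% of genes but no member passed, with 3 subunits and 1753 genes below an unadjusted p of 0.05. All 72 intervals against DMSO lay within 0.5 of 0, and 53 within 0.25. The 10 µM arrays had subunit means of -0.007, 0.085 and 0.014. NDUFS8, an iron-sulfur subunit of complex I, had the largest difference, 0.13 (adjusted p = 0.95). Its other probe sets gave -0.008 (mean level 8.62) and 0.18 (mean level 4.93). NDUFS8 was followed in size within the complexes by UQCRH (0.12), ATP5F1B (0.12), SDHC (-0.11), ATP5F1E (-0.11), NDUFC1 (0.10) and UQCR11 (0.09), of which none passed. The other probe sets of SDHC gave values from -0.0135 to 0.165. The arrays at 10 µM lay above all DMSO arrays for 6 subunits with 2,4-D and 4 with fenbuconazole, where 763 and 1066 of all 19774 genes did. They lay below all DMSO arrays for 0 and 2 subunits in the same order, where 815 and 1118 genes did.

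ATP5MC1, the called gene of the imazalil set, was also higher at 10 µM of the other chemicals without passing the test. With fenbuconazole it went from 8.24, 8.36 and 8.25 in DMSO to 8.34, 8.48 and 8.35 (0.16 above the low concentrations, SE 0.065, limma adjusted p = 0.34). With 2,4-D it went from 8.25, 8.38 and 8.23 to 8.36, 8.34 and 8.46 (0.20 above the low concentrations, SE 0.066, limma adjusted p = 0.27). NDUFS7 differed from the low concentrations by 0.07 with fenbuconazole (adjusted p = 0.89) and 0.15 with 2,4-D (adjusted p = 0.40).

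Both azoles, a triazole and an imidazole, were compared at the same concentration. At 10 µM, 69 of the 72 subunits were lower with fenbuconazole than with imazalil, by a median of 0.11 on the log2 scale, and the median difference of fenbuconazole minus imazalil was -0.11 in complex I, -0.14 in II, -0.11 in III, -0.10 in IV and -0.10 in V. The median over all genes was -0.01. It ran from -0.21 for NDUFS7 to 0.02 for NDUFA6. No member passed limma's test of this difference, where 0.516% of all genes did (102 genes), and 10 subunits had an unadjusted p below 0.05. ATP5MC1 differed by -0.21 (SE 0.077, 95% interval -0.36 to -0.056, adjusted p = 0.39). NDUFS7 differed by -0.21 (95% interval -0.37 to -0.056, adjusted p = 0.39) and NDUFS3 by -0.15 (95% interval -0.31 to 0.0031, adjusted p = 0.69). At 3 µM 31 of the 72 subunits were lower with fenbuconazole, with a median of 0.02, and over the 8 lower concentrations no member passed (0.00632% of gene tests did). At 3 µM SDHD differed by 0.56 (SE 0.20, adjusted p = 0.22). P values were adjusted over all genes within each comparison.

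Both azoles were also compared with 2,4-D at 10 µM, which makes 3 pairs of chemicals at that concentration. With imazalil 70 of the 72 subunits were higher than with 2,4-D, by a median log2 difference of 0.09, where the median over all genes was 0.01, and the medians for complexes I to V were 0.10, 0.10, 0.09, 0.09 and 0.08. No member passed limma's test, where 0.779% of all genes did (154 genes). An unadjusted p below 0.05 was found for 10 subunits, all higher, and for 1771 of all genes. ATP5MC1 had the largest difference (0.22, SE 0.077, 95% interval 0.065 to 0.37, adjusted p = 0.24). With fenbuconazole 33 of the 72 were higher than with 2,4-D, with a median of -0.01. Again no member passed, where 0.551% of all genes did (109 genes), with 1 subunit and 1412 genes at an unadjusted p below 0.05. The 3 pairs share the DMSO arrays through the subtraction and share treated arrays with one another. By the labels the sample numbers run in blocks by chemical within a replicate code. In all 3 pairs a difference between chemicals and one of sample order therefore cannot be told apart. Each chemical also had its own RMA run, and only the DMSO arrays entered every run.

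The 8 lower concentrations gave no call against DMSO for any member in 24 comparisons, where 0.00316% of gene tests passed (15 of 474576). From 0 to 8 subunits had an unadjusted p below 0.05 in each comparison, where 692 to 1882 of all genes did. The median over the subunits lay between -0.02 and 0.07. The smallest p was that of COX6B2, the dim testis isoform of complex IV, at 0.1 µM 2,4-D (-0.51, adjusted p = 0.31). The overall test across 9 concentrations called no member with fenbuconazole (0.379% of genes passed), imazalil (0.389%) or 2,4-D (0%). Unadjusted p below 0.05 was found for 0, 3 and 4 subunits in the same order, and for 991, 1388 and 1466 of all genes. With imazalil the members with the smallest p were ATP5MC1 (adjusted p = 0.30), NDUFS7 (adjusted p = 0.39) and COX7B2, with fenbuconazole SDHD, ATP5MC1 and NDUFB2-AS1, and with 2,4-D COX6B2 (adjusted p = 0.58), ATP5F1E and SDHD.

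In the linear trend no member passed with fenbuconazole (0.172% of genes passed) or 2,4-D (0%). The slope was above 0 for 61 of the 72 subunits with imazalil, 57 with fenbuconazole and 55 with 2,4-D. The medians were 0.02, 0.01 and 0.01 on the log2 scale per 10-fold concentration. Over all genes the median slopes were 0.002, -0.002 and 0.0006. The leading members were NDUFB1 (0.05, adjusted p = 0.44), NDUFA6 and ATP5MC1 with fenbuconazole, and ATP5MC1 (0.05, adjusted p = 0.37), NDUFS8 and ATP5F1B with 2,4-D. The sample numbers in the labels fall as concentration rises within a replicate code, apart from the 0.001 and 0.003 µM samples. The trend and the sample order therefore cannot be told apart, and the same holds for 10 µM against the 4 lowest concentrations.

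Isoforms that are characteristic of other tissues or conditions were dim. The mean log2 levels were 2.49 for COX4I2, the lung and hypoxia isoform, 3.64 for COX6A2 and 2.23 for COX7A1, both heart and muscle isoforms, 2.61 for COX6B2, 2.86 for COX7B2 and 1.88 for COX8C. Their changes at 10 µM did not pass any test, with COX6B2 at -0.29 and COX7B2 at -0.25 with imazalil, COX6B2 at -0.31 and COX4I2 at -0.16 with fenbuconazole, and COX4I2 at -0.30 and COX6B2 at -0.16 with 2,4-D. The partners that liver cells use were above the level of 4. COX4I1 was 0.11 above DMSO and 0.16 above the low concentrations at 10 µM imazalil (adjusted p = 0.37 for the latter), and COX6B1 0.16 and 0.17 (adjusted p = 0.17).

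The subunits differed in how far replicates spread. The SD within groups, averaged over the 3 sets, had a median of 0.081 over the 72 subunits (range 0.042 to 0.29) and of 0.18 over the 6 dim isoforms. NDUFA5, an accessory subunit of complex I, and SDHD had the widest spread, 0.29 and 0.26, followed by ATP5F1E, the epsilon subunit of ATP synthase (0.17), and ATP5PF, the coupling factor of its stalk (0.16). NDUFA5 read 8.91, 8.70 and 9.32 in DMSO and 9.31, 8.58 and 9.21 at 10 µM imazalil. Its P2 array was the lowest in both groups, and the groups overlapped. NDUFA5 and SDHD were among the subunits that were not higher at 10 µM imazalil than at the low concentrations (-0.17 and -0.15).

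These 4 most variable subunits, singled out after their values were seen, deviated from their group means together over the 84 arrays. Pearson's r was 0.895 for NDUFA5 with SDHD, 0.834 for ATP5F1E with ATP5PF, 0.792 for SDHD with ATP5F1E, 0.739 for NDUFA5 with ATP5F1E, 0.721 for SDHD with ATP5PF and 0.641 for NDUFA5 with ATP5PF. The arrays share the RMA run within a chemical, and these values are a description. Of the other 71 subunits, 18 had r above 0.5 with NDUFA5, led by COX7A2 (0.888), UQCR11 (0.781) and COX5A (0.776), and 9 had r below -0.5, led by NDUFV1 (-0.769), SDHA (-0.686) and COX4I1 (-0.677). Over the 72 subunits the median r was 0.109 for the 776 pairs within a complex and 0.105 for the 1780 pairs across complexes. The replicate code passed as a factor for no member, where 3.32% of all genes passed in the fenbuconazole set, 3.56% in the imazalil set and 5.99% in the 2,4-D set. The members with the smallest p for it were COX6B2 (adjusted p = 0.18), SDHC and COX7A2L with imazalil, NDUFB2-AS1 (adjusted p = 0.18), COX7B2 and COX7A2L with fenbuconazole, and NDUFV3 (adjusted p = 0.14), NDUFAB1 and ATP5F1D with 2,4-D.

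**Figure D4:**
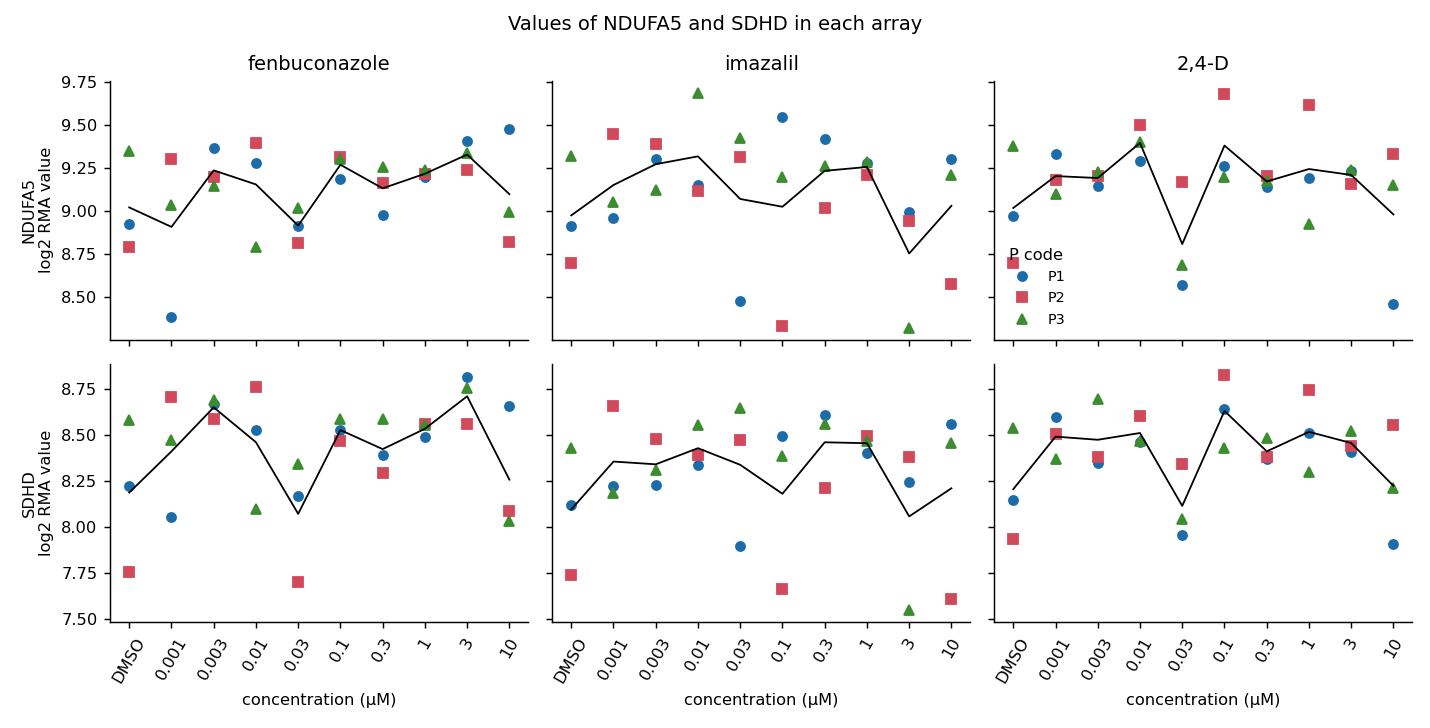
Log2 level of NDUFA5 (upper row) and SDHD (lower row) on every array, by concentration in µM with equal spacing and DMSO at the left, for the 3 chemicals, with symbols for the replicate codes and a line through the group means. An array that is low or high among its replicates for one gene tends to be so for the other (r = 0.895), and the code that stands apart differs between groups.

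The rest of the mitochondrial energy pathway, from lists of genes outside the subunits, was described beside them at 10 µM imazalil. Against DMSO 14 of 15 assembly factors of complex I were higher (median 0.17), 4 of 4 of complex II (0.12), 5 of 6 of complex III (0.18), 14 of 22 of complex IV (0.04) and 4 of 4 of complex V (0.11). Of these none passed the test against DMSO. At 10 µM fenbuconazole the medians for the factors of I to V were 0.02, 0.15, -0.07, -0.01 and -0.02. At 10 µM 2,4-D they were 0.02, 0.11, 0.02, -0.003 and 0.09, so complex II was not particular to imazalil. Against the low concentrations of imazalil they were 0.15, 0.03, 0.22, 0.05 and 0.10. Against the low concentrations FOXRED1 of complex I (0.28, limma adjusted p = 0.043), UQCC2 of complex III (0.35, limma adjusted p = 0.0052) and TACO1, a translational activator for complex IV (0.30, limma adjusted p = 0.011), rose. CYC1, the cytochrome c1 subunit of complex III, whose symbol lies outside the rule for members, rose by 0.28 (limma adjusted p = 0.022).

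Other genes that supply or maintain the chain were described in the same way. Genes of ubiquinone synthesis were higher than DMSO in 11 of 13 cases (median 0.15), genes of the tricarboxylic acid cycle in 9 of 12 (0.14), the carriers of ADP, ATP and phosphate in 3 of 3 (0.15), and genes of mitochondrial protein folding and import in 13 of 14 (0.11). Of these DNAJA3, a mitochondrial co-chaperone, rose against the low concentrations (0.30, limma adjusted p = 0.020). Mitochondrial ribosomal proteins were higher in 66 of 75 cases (median 0.12), and MRPL41 (0.44), MRPS5 (0.32) and MRPS12 (0.30) rose against the low concentrations. Cytosolic ribosomal proteins were higher in 49 of 70 cases with a median of 0.04, and 39 of 70 with a median of 0.00 against the low concentrations, where none passed. The regulators of mitochondrial biogenesis were higher in 10 of 16 cases (0.09) against DMSO and in 7 of 16 (-0.04) against the low concentrations, with none past the test.

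Genes of hypoxia and glycolysis went the other way, with 3 of 16 higher than DMSO at 10 µM imazalil and a median of -0.13. EGLN3, a prolyl hydroxylase that is induced by hypoxia, fell by 0.77 against DMSO (limma adjusted p = 0.00052). Against the low concentrations 1 of 16 was higher, and EGLN3 (-0.79), LDHA, lactate dehydrogenase (-0.25), and PDK1, a pyruvate dehydrogenase kinase (-0.66), fell. Members of this list also fell against the low concentrations at 10 µM fenbuconazole (5 of 16) and 2,4-D (4 of 16), where no subunit passed.

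Subunits with and without the motif letters were set side by side, with no test. At 10 µM imazalil the median difference from DMSO was 0.06 for the 11 subunits with the NRF1 letters and 0.14 for the 51 without, 0.12 and 0.14 for ETS (19 and 43), and 0.14 and 0.11 for YY1 (24 and 38), each among the subunits above the level of 4 with a promoter.

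The drug-metabolising CYP genes rose far more on the same arrays. At 10 µM imazalil CYP1A1 was 5.41, CYP2B6 3.33 and CYP3A4 2.70 above DMSO on the log2 scale, and at 10 µM fenbuconazole they were 2.35, 1.78 and 2.23 above, all past limma's test. CYP1A1 had a mean level at or under 4, so its differences are taken from a dim control level and may understate the change. Of the marker lists of other cells, 1 gene each passed the test in the biliary, immune and stellate lists at 10 µM imazalil. Relative to DMSO the biliary marker SPP1 rose by 0.86, the immune marker CD14 rose by 0.88 and the fibroblast marker COL3A1 fell by 0.82, while the hepatocyte list had 3 of 9 higher with a median of -0.05. Of the 6 biliary markers 3 were higher (KRT19 at -0.17), of the 7 stellate markers 3 (COL1A2 at 0.34) and of the 7 immune markers 3 (PTPRC at -0.24), with list medians of 0.18, -0.07 and -0.03. CYP3A4 is in the hepatocyte list, so its rise enters the mean of that list. The mean log2 level of each list ranged over the groups from 11.83 to 12.10 for hepatocyte, 5.18 to 5.41 for biliary, 5.91 to 6.36 for stellate, 2.94 to 3.12 for endothelial and 3.00 to 3.26 for immune markers. Their part in the shift of the subunits was not tested.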

How the data were processed

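The members and the gene lists were chosen with earlier results of these data known. RNA of 84 HepaRG samples was measured with the Affymetrix HT HG-U133+ PM array. The authors deposited log2 RMA values in 90 columns, since each chemical had its own RMA run and the 3 DMSO arrays entered all of them. The processing notes of the submitters list Partek beside RMA, without versions. RMA equalises intensity distributions between arrays, which can hide a change shared by most genes, and values of different probe sets have no common scale. Array medians lay between 2.81 and 2.97.

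Of 54715 probe sets, 40920 had 1 symbol, 864 several and 12931 none in the platform annotation. Each of 19774 genes was represented by its brightest probe set, and all 83 member symbols matched RefSeq (158 probe sets). Of the members, 9 used probe sets with the suffix x_at and 34 with s_at, which can bind related transcripts, and 36 had a single probe set. With limma 3.58.1 in R 4.3.3, a mean per group was fitted in each set of 30 arrays, without a replicate term, and tested by moderated statistics with Benjamini-Hochberg adjustment at 0.05 over all genes. All limma p values are two-sided or F tests, and an adjusted p without a named tool is limma's. The tests were 10 µM and lower concentrations against DMSO, 10 µM against the 4 lowest concentrations, a moderated F over 9 contrasts, a slope on log10 concentration over 27 treated arrays, the replicate code as a factor, and chemicals against each other after subtraction of each set's DMSO mean. The fit was tested on simulated data. Arrays have no counting depth, so their number limits the precision. Tables were made with pandas 2.3.3 and figures with matplotlib 3.10.9 in Python 3.11.15.

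Named with values were members past a 10 µM test (at most 10 by adjusted p), the 2 largest differences from DMSO in each complex and chemical, the 3 smallest p of the F test, the trend and the replicate test, the SDH genes, tissue isoforms, c subunit genes and CYP1A1, CYP2B6 and CYP3A4. Other genes of lists were named after their values were seen. Alternatives were a replicate block, leaving out each replicate, the mean of all probe sets, a filter at a level of 4, adjustment over all probe sets, median centring, quantile normalisation, a prior with an intensity trend, leaving out 10 µM from the trend, and leaving out the 2 arrays of 2,4-D that share a sample number. The study's data from other cell lines and platforms were not analysed here.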

Additional observations from a re-analysis of the deposited data

How the results depend on the processing

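Of 219 recomputed values, 194 kept their direction and side of the threshold, or stayed within the spread or within 1.5 times of a count, 11 moved, 14 lost significance and 0 reversed. With a replicate block the imazalil calls were 3 against the low concentrations and 1 in the trend, as without it, and the block changed no other call. Samples with the same replicate code deviated together only weakly (mean correlation 0.098, 0.094 and 0.12 in the fenbuconazole, imazalil and 2,4-D sets, against -0.049, -0.047 and -0.058 for other codes), so they were not treated as pairs. By the number in the titles, which differs from the code in the 2,4-D set, the correlation there was 0.00072. Leaving out each replicate gave 0 to 1 members against the low concentrations of imazalil and 0 to 0 in the trend, and a median difference of the subunits from DMSO of 0.081 to 0.16. A prior with an intensity trend gave 10 members against the low concentrations. The mean of all probe sets of a gene gave 2 members in the trend and a median difference from the low concentrations of 0.084. The trend without 10 µM gave 0 members. The shares of all genes that passed under these settings are not given here, so these counts cannot be read as particular to the members. Leaving out the 2 arrays of 2,4-D with the same sample number, chosen in part after seeing the data, kept the members called with 2,4-D at 0. The cause was not tested. The calls of single subunits thus rest on 3 arrays at 10 µM, and differences of the size of the shared shift are near the SE of 1 gene (median 0.086 with imazalil).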

Other observations

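NDUFA4, long counted with complex I and now named COXFA4, is a complex IV protein outside the symbols taken here. It had a mean log2 level of 11.3 and differed from DMSO by 0.15 at 10 µM imazalil (limma adjusted p = 0.83). Its relative COXFA4L2 was dim, at 2.58. A second relative, COXFA4L3, was singled out after its values were seen. With 2,4-D its arrays lay between 3.70 and 3.88 in DMSO, between 4.36 and 5.63 at 0.003 µM and between 2.42 and 3.52 at 10 µM, so that 10 µM lay below the other groups named here. It fell by 1.32 on the log2 scale at 10 µM against the 4 lowest concentrations (limma adjusted p = 0.026), but the difference from DMSO was -0.71 (adjusted p = 0.88) and the slope was -0.35 per 10-fold concentration (adjusted p = 0.054). At 10 µM against the low concentrations it differed by -0.86 with fenbuconazole (adjusted p = 0.065) and by -0.58 with imazalil (adjusted p = 0.17).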
